A study of Mus musculus with 7 samples.

Results

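The Ly6 genes encode small proteins of the Ly6/uPAR (LU) family, most of them tethered to the cell surface by a glycolipid anchor and folded as a three-fingered loop domain. Several are standard surface antigens in mouse immunology: Ly6a is Sca-1, Ly6c marks inflammatory monocytes, and Ly6g is the neutrophil antigen of the Gr-1 antibody. Ly6a, Ly6c and Ly6e are also known as interferon-inducible genes, so a level in a tumour can reflect both the kind of cell and its exposure to interferon. Ly6d is a surface marker of early B-lineage and plasmacytoid dendritic precursors, Ly6h is a brain member of the family, and Ly6i is a close relative of Ly6c whose role is less well defined.

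The 8 members described are Ly6a, Ly6c1, Ly6c2, Ly6d, Ly6e, Ly6g, Ly6h and Ly6i, taken by gene symbol from the 32285 genes measured, and all 8 had at least 1 unique molecular identifier (UMI, a tag that counts 1 captured RNA molecule) in a cell. The family was proposed with earlier results of these libraries in view, so the members were in effect chosen by their measured levels by cell class and by treatment group. Levels and differences below are therefore a description, and p-values are given only as the output of a model fitted over all genes.

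The study profiled whole brain tumours of mice by droplet single-cell RNA sequencing, and 7 libraries of the NSCG-mCherry tumour line (EGFRvIII+, Arf/Ink4a-/-) in wild-type C57BL/6 hosts aged 7 to 10 weeks were analysed here. UT (1 library) is labelled as the control treatment. IgG (2 libraries) received an IgG2b isotype antibody at 10 mg/kg, and BP (2 libraries) received B20, an antibody to VEGF, at 5 mg/kg with anti-PD-L1 at 10 mg/kg, injected every 3 days. BPI (1 library) received the same antibodies with the PI3K inhibitor IPI-145 at 10 mg/kg daily by mouth, and CD40 (1 library) received 2 doses of 100 µg of a CD40 agonist 5 days apart. The labels do not say whether the CD40 mice also had the dendritic cell vaccine that the protocol mentions, and another tumour model named in the series was not analysed here. Every library pools at least 2 mice bearing tumours of 1 transplanted line, so spread between libraries stands for the only replication and spread between mice was not measured. The EGFRvIII and Arf/Ink4a alleles are those of the transplanted line, and the host cells described below are wild type.

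Libraries held 68997476 to 186793886 UMIs in all, and 5373 to 9650 cells per library were kept, 48588 in total. Libraries shared 0 to 26 cell barcodes pairwise. Cells were clustered without the 8 members among the clustering genes, and clusters were named from marker lists that hold no member, so a class below is "X-like" by other genes. Of all cells, 98.1% stayed in the same class when members were allowed among the clustering genes. The libraries stood apart in ways the groups do not explain. The barcodes of UT come from a different list, 3029 of its 5373 cells stayed unnamed, and its tumour-like class holds 1122 cells. Most macrophage-like cells of BP replicate 1 fell into clusters of their own, and in IgG replicate 1, BP replicate 2 and BPI the main tumour-like clusters raised 3 or 4 of 8 tumour markers against 6 to 8 elsewhere. Consecutive library names join IgG replicate 1 with BP replicate 2 and BPI, and CD40 with IgG replicate 2, so values within these sets are given beside the comparison of groups.

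The members lie in 1 cluster on chromosome 15 of GRCm38 (mm10), from 74762056 to 75567255, a span of 805 kb. In order, they are Ly6d (74762056 to 74763620, minus strand), Ly6e (74955051 to 74959905, plus), Ly6i (74979534 to 74983430, minus), Ly6a (74994877 to 74998031, minus), Ly6c1 (75044018 to 75048830, minus), Ly6c2 (75108158 to 75111970, minus), Ly6g (75155240 to 75159126, plus) and Ly6h (75551268 to 75567255, minus). Neighbours in the middle of the cluster are close copies. Over the last 500 bases of their transcripts, where 3′ libraries draw their reads, Ly6c1 and Ly6c2 were 95.5% identical and shared 35 of 411 words of 90 bases. The next pairs were Ly6a with Ly6c2 at 85.9%, Ly6c2 with Ly6i at 85.2% and Ly6a with Ly6i at 85.0%, and the other 6 members shared 0 of these words with any member. Ly6c1 and Ly6c2 values are therefore the least certain split, since a read in a shared stretch fits both genes. How the counting treated such reads is not given in the sources used here.

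The upstream sequences of Ly6c1 and Ly6c2 are shown because these near-identical transcripts appeared in different cells, Ly6c1 in endothelial-like cells and Ly6c2 in monocyte-like and T-like cells. RefSeq lists 2 start sites for each gene, and the more upstream one is used here. Both runs give the 250 bases before the start site, 5′ to 3′ on the gene's strand, from RefSeq on GRCm38.p6, at chr15:75048838-75049087 and chr15:75111972-75112221. Capitals mark their longest shared run of 20 bases, which lies 40 to 21 bases before the start in Ly6c1 and 65 to 46 bases before it in Ly6c2.
Ly6c1: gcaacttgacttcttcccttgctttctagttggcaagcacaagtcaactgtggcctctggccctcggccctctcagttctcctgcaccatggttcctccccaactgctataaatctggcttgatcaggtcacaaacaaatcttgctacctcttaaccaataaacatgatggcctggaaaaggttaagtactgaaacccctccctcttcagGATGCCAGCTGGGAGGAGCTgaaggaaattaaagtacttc
Ly6c2: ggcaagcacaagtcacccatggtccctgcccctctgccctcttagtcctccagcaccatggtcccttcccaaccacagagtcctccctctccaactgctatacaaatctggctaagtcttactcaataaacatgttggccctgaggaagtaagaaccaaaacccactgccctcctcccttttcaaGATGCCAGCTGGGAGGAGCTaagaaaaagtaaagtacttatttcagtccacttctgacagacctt
Aligned end to end, the upstream runs of 250 bases were identical at 171 of 290 columns (59.0%). Columns with a gap are among the 290. The shared run lies at different distances from the 2 start sites, so the windows are offset and their overhang lowers this share. It is therefore not comparable with the 95.5% at the transcript ends. Over the 4 pairings of start sites, windows that also hold the 50 bases after the start were 39.8% to 62.9% identical, with gap columns counted in the same way. RefSeq windows from 250 bases before to 50 after the start were at hand for 3 of the 8 members (Ly6c1, Ly6c2 and Ly6g). On either strand, 0 of them held an interferon-stimulated response element (GAAA, any 2 bases, GAAA) or a gamma-activated site written as TTCNNNGAA. Of 32851 RefSeq windows of that length, 3.44% held the first and 8.30% the second.

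The members other than Ly6h split into 3 broad patterns, seen in the map of levels by class. Ly6e and Ly6a were spread over many classes. Ly6c2 and Ly6i were found in myeloid classes with Ly6c2 also in lymphoid ones, and Ly6c1, Ly6d and Ly6g were each concentrated in 1 or 2 classes. Ly6h had a mean of at most 0.296 CPM in the classes of the map. Levels are given in CPM, the summed UMIs of a gene in the cells of a class and library, scaled to the same total of UMIs in each. With 3′ UMI counts, a CPM depends on capture at each gene's 3′ end, so levels are compared between classes and libraries, not between genes. Means below are over the libraries with at least 20 cells of the class, so classes are averaged over different sets of libraries.

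**Figure D1:**
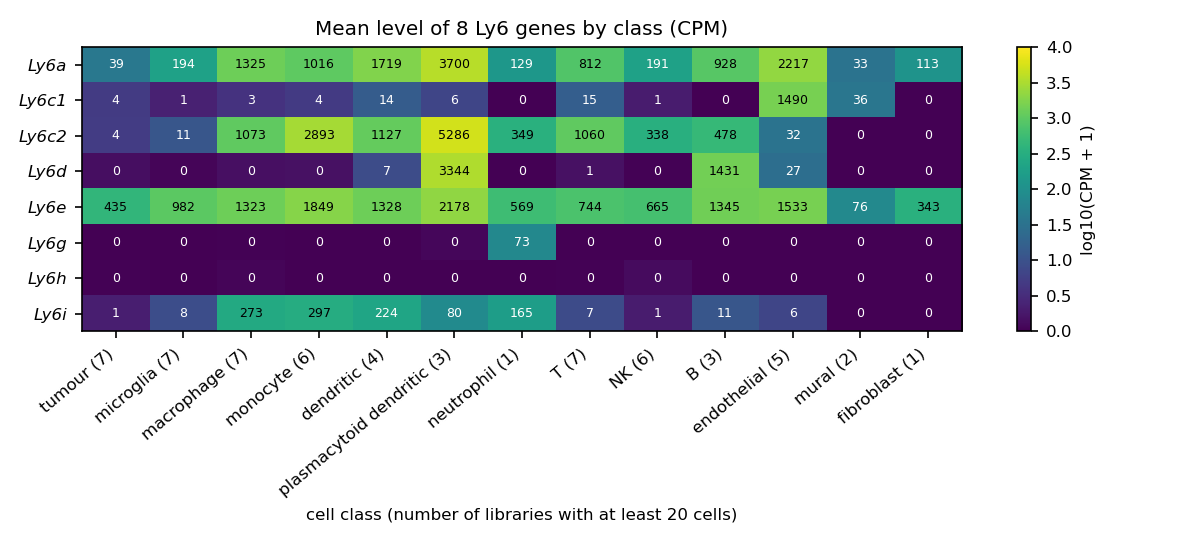
Mean level of each of the 8 Ly6 genes (rows) in each cell class (columns), in CPM averaged over the libraries with at least 20 cells of the class, with the mean printed in each cell and colour on a log scale. Ly6c1 stands out in endothelial-like cells (1489.9 CPM), Ly6d in plasmacytoid dendritic-like (3344 CPM) and B-like cells (1431 CPM), and Ly6e exceeds 400 CPM in the tumour-like class and in each lymphoid and myeloid class.

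Ly6c2, the gene usually meant by Ly6C on inflammatory monocytes, reached 2893 ± 2529 CPM (SD, n = 6) in monocyte-like cells. The libraries gave 7674 in UT, 1707 and 3247 in BP replicates 1 and 2, 2726 in BPI, 1451 in IgG replicate 1 and 552 in CD40. UT stood above the other 5 libraries, and CD40 below them. Macrophage-like cells ranged more widely: 2208 CPM in UT, 801 and 1343 in BP, 2382 in BPI and 749 in IgG replicate 1, against 14.5 in IgG replicate 2 and 14.3 in CD40. The last 2 libraries thus lay far below the other 5. In the same libraries the 8 monocyte markers summed to 337 CPM in macrophage-like cells of IgG replicate 2 and 384 in CD40, against 1272 to 3047 CPM in the other 5, and Hp was at 0 in IgG replicate 2. The part of this in the Ly6c2 level was not tested.

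Within the macrophage-like class, Ly6c2 differed between clusters. It was 152 CPM (95% exact Poisson interval 139.7 to 166) and 216 CPM (195 to 239) in 2 clusters of BP replicate 1 but 1459 CPM (1425 to 1494) in another cluster of that library. A cluster led by Gpnmb, Npy and Apoe and drawn mainly from CD40 and IgG replicate 2 had 94.1 CPM (84.5 to 105) over all its cells. Its libraries differed widely. Ly6c2 there was 6.51 CPM in the 78 cells of CD40 and 0.907 in the 36 cells of IgG replicate 2. In IgG replicate 1, BP replicate 2 and BPI it was 380, 276 and 807 CPM, from 14, 16 and 16 cells. All such intervals cover counting error only. In monocyte-like clusters it was 1504, 1577, 2884 and 8038 CPM, the highest being the UT cluster. Plasmacytoid dendritic-like cells had the highest class mean of Ly6c2, 5286 ± 1609 CPM (SD, n = 3), with 7101 CPM in UT, 4036 in BP replicate 1 and 4721 in BPI. They were below monocyte-like cells in UT and above them in BP replicate 1 and BPI. Dendritic-like cells had 243 to 1829 CPM in 4 libraries. B-like cells differed widely, with 379 CPM in UT, 1056 in BP replicate 1, where 7.69% of the 52 cells had a UMI, and 0 UMIs in CD40. Over classes, the genes most like Ly6c2 were Plac8 (r = 0.96 over 10 class means), AI662270 (r = 0.94) and Prr13 (r = 0.94).

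T-like cells carried Ly6c2 in every library, 1059.8 ± 453 CPM (SD, n = 7). The values were 829.9 in UT, 839 and 1432 in BP, 1835 in BPI, 1048 and 997 in IgG and 438 in CD40. The IgG libraries lay between the BP libraries, so no group stood clear apart from the single BPI and CD40 libraries at the ends. NK-like cells had 1178 CPM in UT, above the T-like value there, and 133 to 246 CPM in the other 5 libraries, below the T-like value of each. Tumour-like cells had 0.0573 to 18.6 CPM, and in UT and BP replicate 1 the free-RNA estimate accounted for 70.0% and 81.2% of it, so Ly6c2 there was mostly at background. Free RNA means transcripts released into the suspension, read from barcodes with at most 100 UMIs.

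The T-like level was concentrated in cells with a Cd8 transcript. In cells with Cd8a or Cd8b1 UMIs and none of Cd4, Ly6c2 was 1796 CPM in UT, 1709.6 and 1978 in BP, 2232 in BPI and 576 in CD40. In cells with Cd4 UMIs and none of Cd8 it was 181, 22.3, 114, 314 and 14.3 CPM in the same order. Cells with Cd8 alone were higher in 5 of 5 libraries, by 12.8-fold between the means (1659 against 129 CPM), and 6.38% of 6062 genes were higher with Cd8 in all 5. Ly6a and Ly6e went the other way in 5 of 5 libraries, with means of 838 against 1217 CPM and 684 against 854 CPM, where 10.4% of genes were higher with Cd4 in all 5. The IgG libraries had too few T-like cells (39 and 57) for this split. Ly6c2 on CD8 T cells is textbook for memory and effector cells, and the cells' differentiation state was not tested here.

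**Figure D2:**
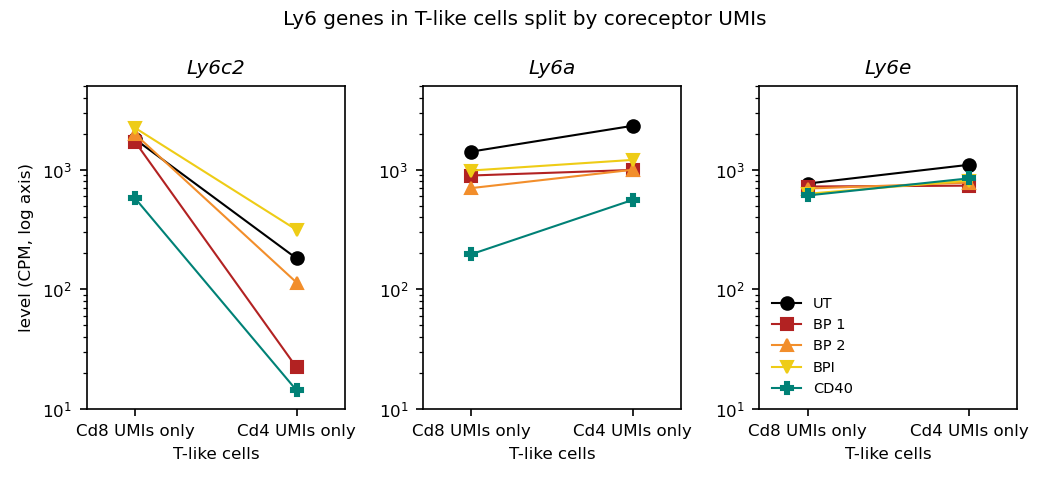
Levels of Ly6c2, Ly6a and Ly6e in CPM (log axis) in T-like cells with Cd8 UMIs alone and with Cd4 UMIs alone, 1 pair of points per library for the 5 libraries with enough cells, with exact Poisson 95% intervals. Ly6c2 is higher with Cd8 in 5 of 5 libraries, while Ly6a and Ly6e are higher with Cd4 in 5 of 5.

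Ly6i was found mainly in myeloid classes. Monocyte-like cells had 1206 CPM in UT, 146 and 71.7 in BP, 223 in BPI, 105 in CD40 and 31.9 in IgG replicate 1. Macrophage-like cells had 953 CPM in UT, 390.0 and 132 in BP, 391 in BPI, 34.9 in CD40, and 4.45 and 4.27 in IgG. Both IgG libraries were thus the lowest in macrophage-like cells. Dendritic-like cells had 612 CPM in UT and 40.6 to 193 CPM in the other 3 libraries. Monocytes are the source of many tumour macrophages, and the genes most like Ly6i over classes were Gm6377 (r = 0.97), Pirb (r = 0.97) and Wfdc17 (r = 0.96). In T-like cells of UT, Ly6i stood at 41.2 CPM against 0 to 6.45 elsewhere. Of its 84 UMIs there, 72 came from 6 cells of a small cluster that raised both T and macrophage markers, and the remaining 272 cells had 12 UMIs, or 6.19 CPM.

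Ly6c1 was an endothelial gene here. Endothelial-like cells had 2612 CPM in UT, 1721 in BP replicate 1, 1626 in BPI, 835 in CD40 and 655 in IgG replicate 2, with a mean of 1489.9 ± 784 (SD, n = 5). They made up 0.778% of cells and held 68.3% of the UMIs of Ly6c1. The next class means were 36.4 CPM in mural-like and 26.4 CPM in choroid plexus-like cells, both in 2 libraries. Ly6c1 is a known surface marker of brain vessels, and its nearest genes over classes were Timp3, Esam, an endothelial junction protein, and Cpne8, each at r = 0.99.

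Vessel clusters differed in Ly6c1 and in Ly6a. A cluster led by blood-brain barrier transporters such as Slco1a4 and Slco1c1 had 2859 CPM of Ly6c1 and 2343 of Ly6a. A cluster led by Ubd, Ackr1 and Ccl19 had 1827 CPM of Ly6c1 and 3576 of Ly6a. It is called venule-like here for Ackr1 alone, a gene of venules. Ido1 and Serpina3f were also among its leading genes, and the interferon list was not read by vessel cluster. The cluster led by Apln and Prnd, genes of growing vessel tips, had 485 CPM of Ly6c1 and 455 of Ly6a. That last cluster came mainly from CD40 and IgG replicate 2 (63 and 54 of its 138 cells), and the venule-like cluster mainly from UT and BP replicate 1 (29 and 25 of 64 cells). By library, in the transporter-led cluster Ly6c1 was 3425 CPM in UT, 3049.8 in BP replicate 1, 2944 in BPI, 2735 in CD40 and 2492 in IgG replicate 2, from 9 to 57 cells each. In the venule-like cluster it was 2568 CPM in UT, 1469 in BP replicate 1 and 1411 in BPI, from 29, 25 and 9 cells. In the tip-led cluster it was 476 CPM in UT, 298 in IgG replicate 1, 499 in CD40 and 489 in IgG replicate 2, from 6, 13, 63 and 54 cells. UT thus had the highest Ly6c1 in the first and second of these clusters but not in the last. Ly6a in the transporter-led cluster was 3321 CPM in UT, 3346 in BP replicate 1, 3079.6 in BPI, 1962 in CD40 and 1409 in IgG replicate 2. In the venule-like cluster it was 5035 CPM in UT, 2930 in BP replicate 1 and 2541 in BPI. In the tip-led cluster it was 1557 CPM in UT, 601 in IgG replicate 1, 473 in CD40 and 402 in IgG replicate 2. Libraries with 1 to 4 cells in a cluster are left out of these values.

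Ly6d was shared by plasmacytoid dendritic-like and B-like cells. The first had 3134 CPM in UT, 3268 in BP replicate 1 and 3631 in BPI, a spread of 258 (SD) around 3344. The second had 1433 in UT, 950.3 in BP replicate 1 and 1912 in CD40. The 2 ranges did not overlap, and these classes held 80.0% and 16.2% of the gene's UMIs. B markers summed to 23.3 to 49.7 CPM in the plasmacytoid class, against 5299 to 10590.4 CPM in B-like cells. Its nearest genes were Iglc3 (r = 0.997) and Spib (r = 0.99), a transcription factor of B and plasmacytoid cells, followed by Gm30211 (r = 0.97). UT endothelial-like cells had 134 CPM of Ly6d against 0 to 1.47 CPM in 4 other libraries.

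Ly6g and Ly6h were close to absent. Ly6g had 19 UMIs in 10 cells, of which 84.2% came from neutrophil-like cells, a class of 65 cells. The neutrophil cluster led by Camp, Ngp and Ltf, granule genes of younger neutrophils, held 16 UMIs at 174 CPM (99.5 to 283). Ly6h had 354 UMIs in 118 cells. It reached 234 CPM (205 to 266) in an unnamed cluster of 56 cells led by Lhfpl3, Tnr and Pcdh15, genes of oligodendrocyte precursors, and 121 CPM (89.4 to 159.7) in ependymal-like cells.

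Ly6a was highest in plasmacytoid dendritic-like (3700.3 ± 1135 CPM, n = 3), endothelial-like (2217 ± 1623, n = 5) and dendritic-like cells (1719 ± 902, n = 4), with SDs as large as the gaps between neighbours in this order. Macrophage-like (1325 ± 1491, n = 7), monocyte-like (1016 ± 1141, n = 6), B-like (928 ± 430, n = 3) and T-like cells (812 ± 666, n = 7) followed, also within their spread. Microglia-like (194 ± 266, n = 7) and NK-like cells (191 ± 208, n = 6) were lower, and tumour-like cells (38.6 ± 70.4, n = 7) lower again. Choroid plexus-like (39.5 ± 33.6, n = 2) and mural-like cells (32.8 ± 7.07, n = 2) stood near the tumour-like mean, and oligodendrocyte-like cells (1.35 ± 1.91, n = 2) had the lowest mean. Classes with 1 library had 756 CPM in mast or basophil-like, 129 in neutrophil-like, 113 in fibroblast-like and 7.71 in astrocyte-like cells. Plasmacytoid dendritic-like cells were counted in UT, BP replicate 1 and BPI, and dendritic-like cells in these and BP replicate 2. The macrophage-like and T-like means also include IgG and CD40, where Ly6a was low. In the libraries with dendritic-like values (529 to 2501 CPM), macrophage-like Ly6a was 1003 to 3979 CPM. The order of classes over shared libraries was not tested. The gene most like Ly6a over classes was Irf9 (r = 0.91), a subunit of the type I interferon transcription factor. Trim25 (r = 0.90) and Ly6e itself (r = 0.86) came next.

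Ly6a differed widely between libraries of the same class. Macrophage-like cells ran from 5.98 CPM in IgG replicate 2 and 13.9 in CD40 to 3979 in UT, a range of 665-fold. Between them lay 162 in IgG replicate 1, 1003 in BP replicate 2, 1667 in BP replicate 1 and 2446 in BPI. Tumour-like cells ran from 1.89 and 2.27 CPM in IgG, 4.09 in CD40 and 5.33 in BP replicate 2, through 25.6 in BPI and 35.9 in BP replicate 1, to 195 in UT. The UT value covers 1122 cells and leaves out unnamed UT-rich clusters that raised 5 of 8 and 8 of 8 tumour markers. Counting them as tumour-like gave 107 CPM of Ly6a over 4022 UT cells. Microglia-like cells had 1.55 and 10.6 CPM in IgG, 4.55 in CD40, 67.7 and 726 in BP, 217 in BPI and 328 in UT. In each of these 3 classes, both BP libraries, BPI and UT lay above both IgG libraries. The same held for 10.2% of genes in macrophage-like, 4.99% in tumour-like and 5.09% in microglia-like cells. Beside the macrophage-like values, the 8 microglia markers ran the other way, from 3060 CPM in IgG replicate 2, 2254 in CD40 and 1636 in IgG replicate 1 to 1166 and 420.1 in BP, 939 in BPI and 885 in UT, and their part was not tested. T-like cells had 198 and 336 CPM in IgG, 354 in CD40, 746 and 951 in BP, 946 in BPI and 2155 in UT, and 18.8% of genes separated both BP libraries, BPI and UT from IgG in these cells. Macrophage markers in T-like cells were highest in UT, at 694 CPM against 41.0 and 102 in IgG and 58.1 to 539.9 in the other 4 libraries, and their part was not tested. In these bulk sums of a class, more cells with the transcript and more transcript per cell are joined.

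Markers of other cell types were also read in tumour-like cells, and their part in the Ly6a level was not tested. The 9 macrophage markers summed to 131 to 335 CPM in tumour-like cells, against 11994 to 44027 CPM in their own class, and the 8 endothelial markers to 22.6 to 37.4 CPM, against 7783 to 9438 CPM. The 8 plasmacytoid dendritic markers summed to 706 to 1358 CPM, against 8076 to 15680.1 CPM in their own class. Single genes made up most of 2 of these sums in tumour-like cells: Apoe, a lipid carrier also made by astrocytes, was 119 to 271 CPM of the macrophage sum, and Tcf4, a transcription factor also expressed in neural cells, 670 to 1287 CPM of the plasmacytoid dendritic sum. Free RNA was estimated to account for 7.00% to 22.6% of tumour-like Ly6a. In UT, 67.8% of tumour-like cells had a Ly6a UMI, in BP replicate 1 34.0%, in BPI 16.2%, and in IgG 2.39% and 0.832%. The UT share also leaves out the unnamed UT-rich clusters. A tumour-like cluster led by Gfap and A2m, astrocytic reactive genes, had 175 CPM of Ly6a (169 to 182).

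Ly6e, a broadly expressed member induced by type I interferon, was seen in 76.4% of all cells. Tumour-like cells split sharply by library: 44.9 CPM in IgG replicate 2 and 54.8 in CD40, against 448 in IgG replicate 1, 466 and 469.8 in BP, 665 in BPI and 898 in UT. The IgG libraries differed from each other by more than BP did from IgG replicate 1. Macrophage-like cells split the same way, with 219 CPM in IgG replicate 2 and 399 in CD40, and 1094 in IgG replicate 1, 1403 and 1556 in BP, 1972 in BPI and 2616 in UT. Monocyte-like (1432 to 3006 CPM) and T-like cells (526 to 1132 CPM) varied far less, by 2.10-fold and 2.15-fold between the lowest and the highest library. The monocyte-like range covers 6 libraries, without IgG replicate 2 (13 such cells), which was the lowest in tumour-like and macrophage-like cells. Counting the unnamed UT-rich clusters as tumour-like moved the UT tumour-like value from 898 to 1122 CPM for Ly6e and from 195 to 107 CPM for Ly6a. This alternative was chosen after seeing the data.

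**Figure D3:**
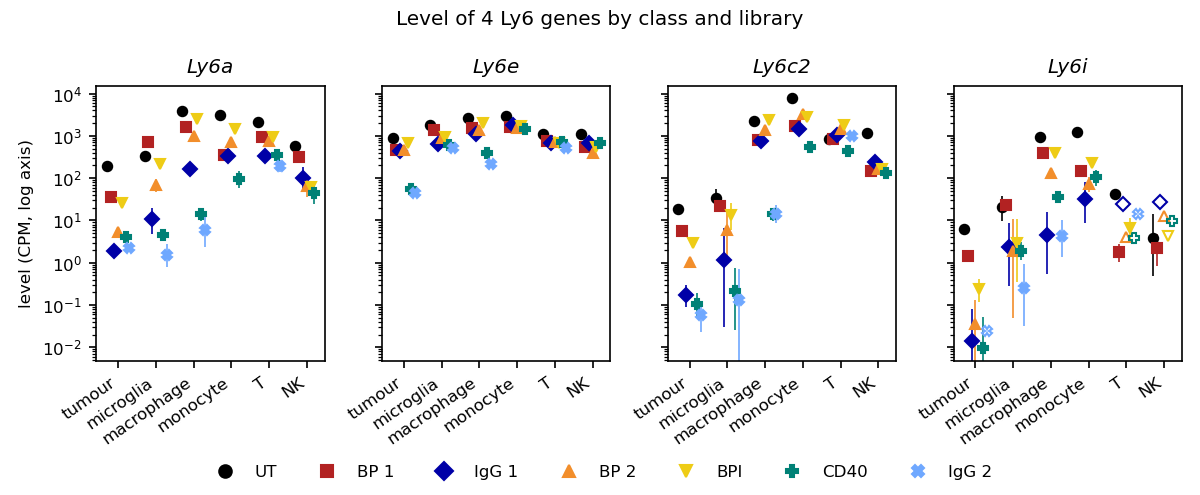
Levels of Ly6a, Ly6e, Ly6c2 and Ly6i in CPM (log axis) in 6 cell classes, 1 point per library coloured by group, with exact Poisson 95% intervals and open symbols at the floor of 3 counts where a library had 0 UMIs. Ly6a in macrophage-like cells spans 5.98 to 3979 CPM, while Ly6e in T-like cells spans 526 to 1132 CPM.

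Which members followed interferon was read against 37 interferon-stimulated genes that hold no member, 17 antiviral and 20 leaning to interferon gamma. In tumour-like cells the summed list was 1319 CPM in IgG replicate 2, 1214 in CD40, 1825 in IgG replicate 1, 2459.6 in BP replicate 2, 5304 in BPI, 10312 in BP replicate 1 and 19362 in UT. Ly6a followed this order except among the lowest 3 libraries, and the 3 highest libraries were shared (3 of 3). They were also shared in microglia-like cells (3 of 3), and 2 of 3 were shared in macrophage-like and T-like cells. Ly6e shared 3 of 3 in microglia-like cells, 2 of 3 in tumour-like and macrophage-like cells and 1 of 3 in T-like cells. Tumour-like Ly6e was close in IgG replicate 1 and BP replicate 1 (448 and 466 CPM) although their interferon lists stood at 1825 and 10312 CPM. Ly6c2 shared the 3 highest libraries with the list in macrophage-like, monocyte-like and NK-like cells (3 of 3), and 2 of 3 in T-like cells. Ly6a shared 3 of 3 in monocyte-like and 2 of 3 in NK-like cells, and Ly6i 2 of 3 in macrophage-like and in monocyte-like cells. Ly6c2 in T-like cells was highest in BPI, where the list stood at 9363 CPM, and not in UT, where it stood at 14327 CPM. Library differences of every other kind enter this ordering too. The share of all genes with such overlaps was not counted, so no member is ranked above another by them. In macrophage-like cells the third place of the list was nearly tied, with 10761 CPM in BP replicate 2 and 10736 in BP replicate 1.

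**Figure D4:**
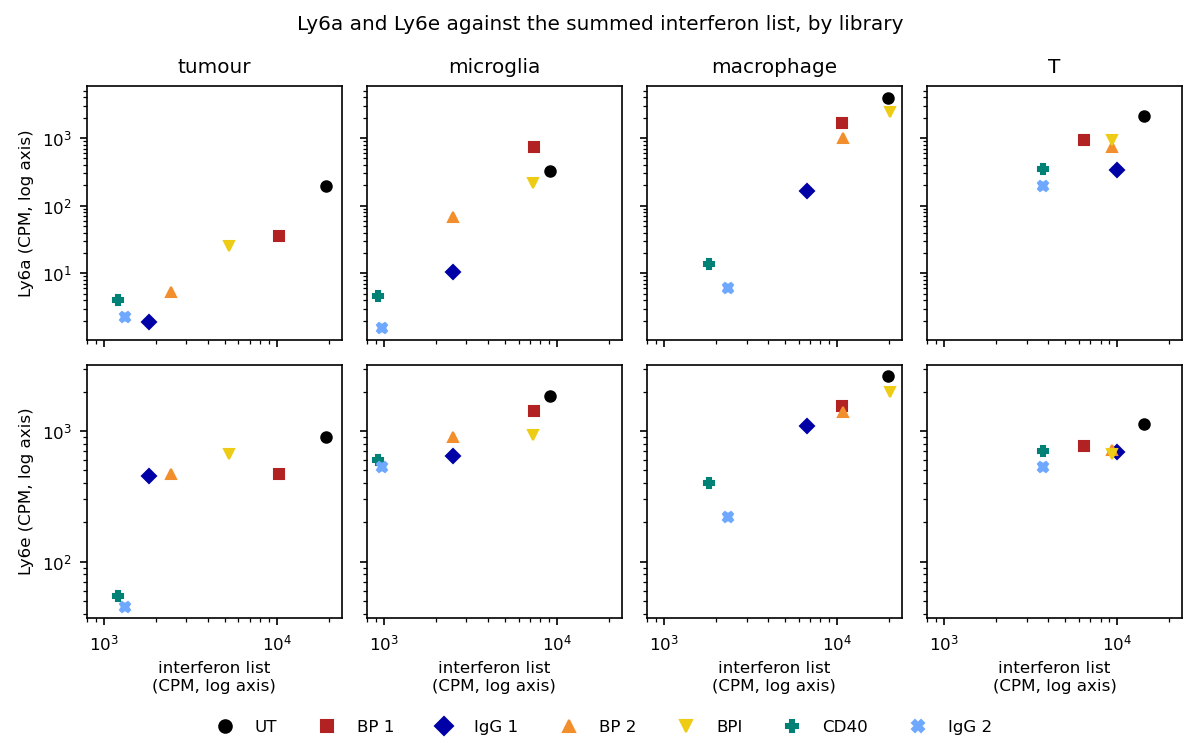
Ly6a (upper row) and Ly6e (lower row) in CPM against the summed interferon list in CPM, both on log axes, 1 point per library in tumour-like, microglia-like, macrophage-like and T-like cells. Tumour-like Ly6a spans 1.89 CPM in IgG replicate 1 to 195 CPM in UT, and does not follow the list among the lowest 3 libraries. CD40 and IgG replicate 2 sit apart at the low end of tumour-like Ly6e (54.8 and 44.9 CPM).

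Inside a single library, cells of a class were ranked by the share of their UMIs from the interferon list, and the ranking was divided into 3 equal parts, of which the highest was compared with the lowest. This keeps group and library constant, though cells of 1 library are not replicates and the parts differ in depth, with fewer UMIs per cell in the high part of macrophage-like cells in each of 5 libraries. In tumour-like cells Ly6a was higher in the high part in 7 of 7 libraries and Ly6e in 7 of 7, where 7.50% of 7239 genes were higher in all 7. The Ly6a values were 298 against 81.0 CPM in UT, 68.4 against 15.4 and 12.2 against 1.50 in BP, 56.3 against 5.51 in BPI, 12.5 against 0.395 in CD40, and 4.87 against 0.323 and 6.80 against 0.146 in IgG. Ly6a was thus higher in the high part also in the libraries where its class level was near the lowest. In CD40 and IgG replicate 2 the Gfap-led cluster held 380 and 166 of the Ly6a UMIs, in 290 of 5831 and 220 of 6248 cells. The largest cluster of each held 10 and 11, in 1763 and 2128 cells. Where the Gfap-led cells fell in the ranking was not tested. The means were 65.6 against 14.9 CPM (4.40-fold) for Ly6a and 574 against 311 CPM (1.85-fold) for Ly6e. Ly6c2, at background in these cells, was 17.6 against 18.7 CPM in UT and 6.24 against 5.46 in BP replicate 1. The macrophage markers were 268 CPM in the high parts and 209 in the low ones.

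Macrophage-like cells showed all 4 myeloid members higher in the high part in 5 of 5 libraries, where 12.3% of genes were. Ly6c2 differed the most, 2949.9 against 434 CPM (6.80-fold), then Ly6a at 2941 against 959 (3.07-fold), Ly6i at 569 against 240.1 (2.37-fold) and Ly6e at 2174 against 1105 (1.97-fold). Ly6c2 stood at 5631 against 615 CPM in UT, 1641 against 281 and 2664 against 418 in BP, 4782 against 854 in BPI and 31.4 against 1.17 in CD40. Monocyte markers went with it, at 2724 against 1386 CPM and higher in 4 of 5 libraries, while microglia markers were lower in 5 of 5 (874 against 1279 CPM). The part of monocyte-to-macrophage position in these differences was not tested. In monocyte-like cells the spread was smaller. Ly6c2 (1.63-fold) and Ly6e (1.21-fold) were higher in 4 of 4 libraries and Ly6a (2.41-fold) and Ly6i (1.12-fold) in 3 of 4, where 13.5% of genes were higher in all 4. Macrophage markers there were lower in the high part in 4 of 4 (1464 against 1742 CPM), and their part was not tested. With the genes leaning to interferon gamma alone, Ly6c2 was higher in 1 of 4.

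T-like cells had Ly6a (1621 against 539 CPM, 3.01-fold), Ly6e (1161 against 534, 2.17-fold) and Ly6c2 (1405 against 799.7, 1.76-fold) higher in 5 of 5 libraries, where 9.90% of genes were. The difference was also present within cells of 1 co-receptor, in the libraries where that split could be made. Among cells with Cd8 alone, Ly6a was 1654 against 492 CPM and 1114 against 358 in BP, and 1639.6 against 534 in BPI. Ly6c2 in the same cells was 3274 against 711 and 2436 against 1841 CPM in BP, and 3408 against 1537 in BPI. Among cells with Cd4 alone, Ly6a was 3496 against 1139 CPM in UT and 1442 against 723 in BP replicate 1. Ly6c2 in the same cells was 483 against 14.9 CPM in UT and 35.6 against 10.0 CPM in BP replicate 1. Ly6c1 was higher in 4 of 5 libraries, at low levels, with 154 against 7.49 CPM in UT and means of 40.8 against 2.37 CPM. Other markers moved along the same ranking. NK markers were lower in the high part in 4 of 5 libraries (150.2 against 327 CPM), Cd4 was higher in 5 of 5 (128 against 88.0 CPM), and macrophage markers were higher in 4 of 5, with 907 against 177 CPM in UT. In CD40 the macrophage markers went the other way, 134 against 1283 CPM, so that their means were 299 against 342 CPM. Their part in the differences was not tested.

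In NK-like cells only Ly6e of these 3 members kept to 1 direction. Ly6e was higher in 5 of 5 libraries (876 against 496 CPM), where 5.56% of genes were, but Ly6a in 2 of 5 and Ly6c2 in 3 of 5. With every cell thinned to 1000 UMIs these counts were 4 of 5 and 1 of 5, so no order is read from them. In UT, NK-like Ly6a was 364 in the high and 482 CPM in the low part. Microglia-like cells had Ly6a (285 against 77.0 CPM, 3.70-fold) and Ly6e (956 against 749.7 CPM, 1.28-fold) higher in 6 of 6 libraries, where 12.9% of genes were. Monocyte markers there were 357 against 95.9 CPM, higher in 6 of 6, and their part was not tested. Endothelial-like cells had enough cells in CD40 and IgG replicate 2. Ly6a (2.03-fold), Ly6c1 (2.17-fold) and Ly6e (1.78-fold) were higher in both, where 25.8% of genes were. Ly6c1 in the transporter-led against the tip-led cluster was 2735 against 499 CPM in CD40 and 2492 against 489 in IgG replicate 2. The part of vessel cluster in these differences was not tested. Dendritic-like cells in 2 libraries had Ly6a at 4.44-fold, Ly6c2 at 4.38-fold, Ly6i at 3.26-fold and Ly6e at 2.24-fold, also against 25.8% of genes. In the plasmacytoid dendritic-like cells of BP replicate 1, the 1 library with enough of them, Ly6d was 3293 against 3225 CPM, Ly6a 3918 against 2709, Ly6c2 5093 against 3087 and Ly6e 2174 against 1789, where 45.4% of genes were higher.

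**Figure D5:**
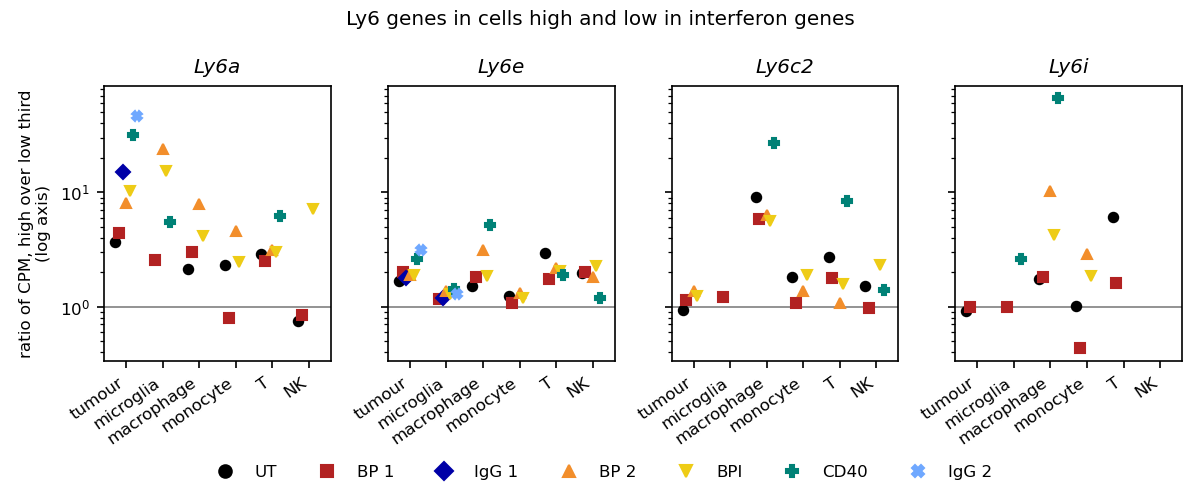
Ratio of a member's CPM in the highest to the lowest of 3 equal parts of the cells by interferon-list share (log axis), 1 point per library, by class and member, drawn where both parts had UMIs and together at least 10. Tumour-like Ly6a lies above 1 in 7 of 7 libraries and macrophage-like Ly6c2 in 5 of 5, while NK-like Ly6a falls on both sides of 1.

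Groups were compared with IgG on UMI sums per library and class with edgeR's quasi-likelihood test, adjusted over all genes by Benjamini-Hochberg at 0.05, in the 4 classes with at least 20 cells in every library. BPI, CD40 and UT are single libraries, and the model gives them the spread of the replicated groups. In T-like cells 0 of 4 members tested passed for BP, where 1.09% of 9237 genes did (720 genes, and 1 member, at an unadjusted p under 0.05, and 5 genes by DESeq2). Ly6a in BP was 1.52 ± 0.46 (SE) above IgG on the log2 scale with an adjusted p of 0.0739 (edgeR). For BPI 1 of 4 members passed, where 0.639% of genes did. It was Ly6a, which rose by 1.94 ± 0.52 (adjusted p = 0.0429, edgeR), and it no longer passed without IgG replicate 1 or without IgG replicate 2 (adjusted p = 0.318 and 0.860), with RLE size factors (0.0779) or in cells with at least 2000 UMIs (0.0509). For CD40 0 of 4 passed, where 0.184% of genes did (390 genes at an unadjusted p under 0.05, and 1 by DESeq2), and Ly6a differed by 0.34 ± 0.54. For UT 2 of 5 members passed, where 3.09% of genes did: Ly6a, higher by 2.97 ± 0.55, and Ly6i, at 0 in both IgG libraries. Leaving out BP replicate 2 left 0 genes called for UT, leaving out IgG replicate 2 left 0 members, and leaving out IgG replicate 1 left 1. Ly6i had an adjusted p of 0.0372 in edgeR and of 0.0549 to 0.0685 with RLE size factors, no low-count filter, subtracted free RNA or cells with at least 2000 UMIs, and DESeq2 gave none. Of the Ly6i UMIs in UT, 72 of 84 came from the 6 cells with both T and macrophage markers described above, and a fit without them was not made. Ly6e and Ly6c2 in T-like cells did not pass in any group, with log2 differences of 0.12 to 0.83 for Ly6e and -1.32 to 0.93 for Ly6c2.

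In macrophage-like cells 0 of 4 members passed for BP, BPI and CD40, where 0% of 10483 genes did (933, 925 and 104 genes at an unadjusted p under 0.05, and 98, 133 and 3 by DESeq2). For UT 1 of 5 passed, where 0.318% of genes did: Ly6i rose by 8.04 ± 0.76 (adjusted p = 0.0162, edgeR). Different clusters held most of the class in different libraries. Of 309 UT cells 278 fell into a cluster led by Gm15056, Ass1 and Cd72 that held 0 IgG cells, and the Gpnmb-led cluster had 36 of 44 cells of IgG replicate 2 and 78 of 113 of CD40. A cluster led by Cd72, Apoc2 and Rgs1 had 32 of 46 cells of IgG replicate 1, 135 of 152 of BP replicate 2 and 247 of 263 of BPI. Within that last cluster Ly6i was 187 CPM in the 24 cells of UT, 163 in BP replicate 2, 442 in BPI, 88.7 in the 34 cells of CD40, 8.85 in IgG replicate 1 and 74.3 in the 8 cells of IgG replicate 2. Ly6a there was 3326 CPM in UT, 1177 in BP replicate 2, 2659 in BPI, 15.1 in CD40, and 212 and 74.3 in IgG. UT, BP replicate 2 and BPI were thus above both IgG libraries in this cluster for both members, by less for Ly6i of UT than in the class as a whole. The Ly6i values of IgG replicates 1 and 2 there rest on 2 and 5 UMIs, so the order of Ly6i against IgG replicate 2 is uncertain. The Gpnmb-led cluster had 0 Ly6i UMIs in both IgG libraries, so their level in the class rests on the same few UMIs. Ly6a had 48 and 5 UMIs in these IgG cells.

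Over the whole macrophage-like class the differences of Ly6a were 4.08 ± 1.18 in BP, 5.29 ± 1.31 in BPI, -2.48 ± 1.49 in CD40 and 5.91 ± 1.32 in UT. The IgG libraries are 162 and 5.98 CPM, a gap that enters each of these errors. Ly6i was 5.90 ± 0.67 higher in BP and 6.85 ± 0.72 higher in BPI, at adjusted p of 0.160 and 0.0938 in edgeR. How many members passed turned on single libraries, and so did the number of genes called. The median log2 difference of the members tested was 2.84 for BP in the full fit. It was 6.11 without IgG replicate 1, 1.81 without IgG replicate 2, 2.97 without BP replicate 1 and 2.75 without BP replicate 2. The CD40 difference of Ly6a turned to 1.27 without IgG replicate 1.

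In microglia-like cells 0 of 4 members passed in any of the 4 comparisons, where 0% of genes did (49 to 791 genes at an unadjusted p under 0.05, and 0 to 50 by DESeq2). Ly6a differed by 6.70 ± 1.42 in BP, 6.02 ± 1.49 in BPI, 0.28 in CD40 and 6.47 ± 1.53 in UT. How many members passed for BP, BPI and UT changed when BP replicate 2 was left out, and for BPI and UT also when BP replicate 1 was left out. The number of genes called changed with them. The CD40 difference turned to -1.17 without IgG replicate 2, and the BP difference was 4.42 without BP replicate 1 and 7.82 without BP replicate 2. Of 153 cells of BP replicate 1, 98 and 49 fell into 2 clusters led by Crybb1 and by Cxcl13, while a cluster led by Gpr34 and P2ry12 held 138 of 156 and 711 of 741 IgG cells, 852 of 873 of CD40, 159 of 164 of BP replicate 2, 191 of 209 of BPI and 30 of 50 of UT. Within this last cluster Ly6a was 10.3 and 1.58 CPM in IgG, 4.60 in CD40, 69.6 in BP replicate 2, 224 in BPI, 143 in UT and 357 in the 5 cells of BP replicate 1.

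In tumour-like cells 0 of 7 passed in any comparison, where 0% of genes did (13 to 2312 at an unadjusted p under 0.05, and 0 to 680 by DESeq2). Ly6a differed by 3.22 ± 0.89 in BP, 3.83 ± 0.99 in BPI, 0.85 ± 0.98 in CD40 and 6.56 ± 1.06 in UT. The unnamed UT-rich clusters are not in this UT value. The BP difference was 1.47 ± 0.38 without BP replicate 1 and 3.99 ± 0.32 without BP replicate 2. Here too the libraries fell into different clusters. Of 4931 cells of BP replicate 1, 4424 were in a cluster with 0 and 15 IgG cells, and of 1122 UT cells 718 were in a cluster with 0 and 6. The Gfap-led cluster was shared by more libraries, and Ly6a there was 1124 CPM in the 42 cells of UT, 191 in BP replicate 1, 1310.4 in the 13 cells of BPI, 73.6 in CD40 and 43.0 in IgG replicate 2. Of the clusters that IgG replicate 1 shared with BP replicate 2 and BPI, the largest had 1.56, 2.48 and 10.7 CPM of Ly6a in that order, the next 0.637, 3.14 and 7.51, and the third 5.53, 6.95 and 24.2. A smaller shared cluster, with 53, 132 and 430 cells, had 23.8, 35.4 and 68.9 CPM.

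Within the sets of consecutively named libraries, 1 treated library stands against 1 IgG library, so the ratios below carry a 95% counting interval and no test. Ly6a in macrophage-like cells was 6.18-fold (4.88 to 7.95) higher in BP replicate 2 and 15.1-fold (12.0 to 19.3) higher in BPI than in IgG replicate 1, and 2.32-fold (1.01 to 6.21) higher in CD40 than in IgG replicate 2. In T-like cells the ratios were 2.22 (1.62 to 3.13), 2.82 (2.07 to 3.94) and 1.78 (1.29 to 2.52) in the same order. In tumour-like cells they were 2.82 (2.29 to 3.49), 13.5 (11.3 to 16.3) and 1.81 (1.55 to 2.11), and in microglia-like cells 6.39 (3.01 to 15.1), 20.5 (10.5 to 45.7) and 2.93 (1.52 to 6.11). Behind the 1.81, the Gfap-led cluster held 380 Ly6a UMIs in 290 of 5831 CD40 cells and 166 in 220 of 6248 cells of IgG replicate 2. The largest tumour-like cluster of these libraries had 0.331 and 0.281 CPM. The part of the Gfap-led cluster in the ratio was not tested. Summed over each class as a whole, Ly6a was therefore higher in the treated library of each of the 3 pairs in all 4 classes. The same held for 15.0% of genes in macrophage-like, 30.0% in T-like, 12.6% in tumour-like and 18.3% in microglia-like cells, taken class by class. Tumour-like Ly6e had ratios of 1.05, 1.48 and 1.22, and T-like Ly6e 1.02, 0.955 and 1.35. Summed over the class, the CD40 value of macrophage-like Ly6a is thus above IgG within its set and below IgG in the comparison of groups, where IgG replicate 1 enters. Clusters of that set differed in direction. In the cluster led by Cd72, Apoc2 and Rgs1, Ly6a was 15.1 CPM in CD40 and 74.3 in IgG replicate 2, from 8 and 5 UMIs. In the Gpnmb-led cluster it was higher in CD40, with 24 UMIs in 78 cells against 2 UMIs in 36 cells. The part of these clusters in the class ratio was not tested. T-like Ly6c2 was 1.37-fold and 1.75-fold higher in BP replicate 2 and BPI but 0.439 times (0.369 to 0.523) the IgG level in CD40. Set and library cannot be told apart for BP replicate 1 and UT, which have no IgG library of their own.

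Of the other 32 genes of the LU family, all 32 were measured and 6 reached 50 CPM in a class. Plaur, the urokinase receptor, was highest in neutrophil-like cells (1340.1 CPM), and Lypd6b was also highest there (110.1 CPM). Cd59a, an inhibitor of complement, was highest in choroid plexus-like cells (443 CPM). Ly6k and Lynx1 peaked in plasmacytoid dendritic-like cells (129 and 87.4 CPM), and Lypd6 in fibroblast-like cells (65.8 CPM). The neutrophil-like and fibroblast-like values come from 1 library each, with 27 and 22 cells, so they rest on few UMIs for the weaker genes. Ly6f, the nearest relative by name in the same cluster, had 2 UMIs in all libraries.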

How the data were processed

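Whole NSCG brain tumours were measured in 7 droplet 3′ libraries. The authors deposited raw UMI counts for each gene in each barcode. Per the file headers they come from Cell Ranger 4, while the submitters' processing notes name Cell Ranger 7.0.1 and mm10. The submitters' handling of reads that fit several genes is not given in the sources used here.

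Members and lists were chosen with earlier results of these data known. Named genes are the 8 members, the 3 genes most like each member that reaches 50 CPM (Pearson correlation of class means of log2(CPM + 10), 10 classes, 6942 genes), and other LU genes that reach 50 CPM. Vessel, macrophage and neutrophil cluster genes were named after their values were seen.

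Cells were barcodes with 1000 or more UMIs, 500 or more genes and no more than 15% of UMIs from mitochondrial genes, and the highest Scrublet scores were removed as doublets, 0.8% per 1000 cells (4.50% to 8.44% of a library). Clustering used 2000 variable genes without the members, 30 principal components, 15 neighbours and Leiden resolution 1, with 1 further split at 0.5 (scanpy 1.11.5, igraph 0.11.9). A name needed at least 3 raised markers, and the naming thresholds were set after seeing the data. For each class, UMIs of its cells were added up by library, with exact Poisson 95% intervals. The 3 parts by interferon list needed 60 cells of the class and genes a mean of 20 CPM. Shares of genes that separate libraries, over genes of the same mean level, and vessel, macrophage, microglia and tumour cluster values by library were added after seeing the data. Group tests used edgeR 4.0.16 (TMM, filterByExpr) in R 4.3.3, with DESeq2 1.42.0 as an alternative, and were tested on simulated data. In the BP comparison the simulation recovered 67.5% of 4-fold changes in T-like, 54.0% in macrophage-like, 59.0% in microglia-like and 2.00% in tumour-like cells. Nothing says that mice of one group came from separate experiments, so p-values measure only the spread between these libraries. Same-numbered IgG and BP libraries do not pair (correlation of deviations -0.66 to 0.17). Alignments used biopython 1.88.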

Additional observations from a re-analysis of the deposited data

How the results depend on the processing

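The number of members called moved in 49 of 156 alternatives over 16 comparisons, the log2 difference of a member reversed in 15 of 435, came past the threshold in 71 and no longer passed in 14, and levels moved in 1 of 106. For T-like BP (0 called) no low-count filter gave 1, with 119 of 19940 genes called. For T-like BPI (1 called) RLE size factors and cells of at least 2000 UMIs gave 0, with 45 of 9237 and 71 of 9042 genes called. For T-like UT (2 called) DESeq2, RLE, no filter, subtracted free RNA and cells of at least 2000 UMIs each gave 1. In these UT settings 104 to 277 genes were called, and DESeq2 gives Ly6i no adjusted p. For macrophage-like BP (0) DESeq2 gave 1, with 98 of 10483 genes called, and no filter 3, with 488 of 20454. For BPI (0) DESeq2 gave 1, with 133 of 10483 genes called, and no filter 4, with 444 of 20454. With no filter, CD40 (0) gave 2, with 27 of 20454 genes called, and UT (1) gave 4, with 637 of 20820. For microglia-like BP (0) DESeq2 gave 1, with 40 of 11398 genes called, and no filter 3, with 276 of 21999. For BPI (0) no filter gave 2, with 121 of 21999 genes called. For UT (0) DESeq2 gave 1, with 50 of 9888 genes called, and no filter 3, with 267 of 22044. In tumour-like cells DESeq2 gave 2 for BP, with 49 of 20224 genes called, and 5 for UT, with 680 of 19957. Leaving out 1 library also moved the number called in the T-like, macrophage-like and microglia-like comparisons named here. Fewer genes tested or fewer libraries enter some of these settings, and otherwise the cause was not tested.

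Reversed differences were small in T-like cells. For BP Ly6c2 (0.04) leaving out a library gave -0.65 to 0.49 and cells of at least 2000 UMIs -0.053. For BP Ly6e (0.12) leaving out a library gave -0.017 to 0.25, and for CD40 Ly6e -0.0082 (without IgG replicate 2) to 0.25. Leaving out a library moved macrophage-like CD40 differences between -3.49 (without IgG replicate 2) and 1.27 (without IgG replicate 1) for Ly6a, -5.65 and 0.039 for Ly6c2, and -1.40 and 0.93 for Ly6e. Tumour-like CD40 Ly6e went from -3.24 to 0.22 and tumour-like BP Ly6e from -0.033 (without IgG replicate 2) to 3.45 (without IgG replicate 1). Microglia-like CD40 Ly6a went from -1.17 to 1.51 (-0.31 by DESeq2) and Ly6e from -0.049 to 0.15. With members among the clustering genes, Ly6d in plasmacytoid dendritic-like cells was 3618 CPM. With cells thinned to 1000 UMIs, NK-like Ly6a was higher in the part high in interferon genes in 4 of 5 libraries and Ly6c2 in 1 of 5. With the gamma-leaning list alone, monocyte-like Ly6c2 was higher in 1 of 4.

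With the replicate number as a block, macrophage-like BP gave 2 members called among 73 genes, T-like cells 0 members and 0 genes, and T-like Ly6c2 turned to -0.12. With the numbers crossed, an alternative added after seeing the data, macrophage-like cells gave 2 members among 296 genes and T-like cells 0 members among 100 genes, and T-like Ly6c2 was -0.13. The block changed no other call of a member. Cell numbers were small in some classes, with 44 and 46 macrophage-like and 39 and 57 T-like cells in the IgG libraries and 50 microglia-like cells in UT.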
